A study of Mus musculus with 8 samples.

Results

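The comparison described here sets the hair germ against the interfollicular epidermis (IFE) of newborn mouse skin, within each of 4 pups. It uses all 8 RNA-seq libraries of the series, paired as 1 hair germ and 1 IFE library per pup, so that 4 pairs of 4 are included. Skin came from pups of mixed strain at postnatal day 0.5, whose mothers were fed doxycycline chow while pregnant. Both populations were sorted as K14RFP-positive (red fluorescence under the keratin 14 promoter) and high for α6 integrin, hair germ with high and IFE with low P-cadherin. Control pup 3 carried K14rtTA alone and control pup 5 carried pTRE2-200bcl alone, and transgenic pups 4 and 6 carried both. K14rtTA is a doxycycline-dependent transactivator driven by the keratin 14 promoter, and pTRE2-200bcl is the responder construct with the miR-200 cluster. All groups thus share the doxycycline diet and the reporter used for sorting, neither control carried the full system, and each combination of genotype and population holds 2 libraries.

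The hair germ is the early bud of the hair follicle, a cluster of basal keratinocytes that grows down from the epidermis in contact with a dermal condensate. Wnt and ectodysplasin signals act when such buds form, and Sonic hedgehog made by the bud acts on the bud itself and on the dermis below it. Hedgehog binds the receptor Patched, which frees Smoothened and activates the Gli transcription factors, and Patched and Gli1 are themselves standard targets of the pathway. The IFE around the buds keeps a basal layer, held to the basement membrane by integrins, that gives rise to suprabasal cells with keratins 1 and 10.

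Levels are given as CPM, counts scaled to a common library size after TMM normalisation, which sets the sizes by a trimmed mean of the ratios between libraries. Lists of 4 values follow the order of pups 3, 4, 5 and 6 throughout. Positive log2 fold changes are higher in hair germ, and each comes with its standard error (SE) and an adjusted p from edgeR's quasi-likelihood test with pup as a block and Benjamini-Hochberg adjustment over all genes. A gene is said to have risen or fallen when that adjusted p was under 0.05. The count files use mm10 (GRCm38), and positions are those of GENCODE M21 on GRCm38.

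Libraries held 7109871 to 14039583 counts assigned to genes. Rn45s, the ribosomal RNA precursor, took 30.6% of the counts in IFE of pup 3 and 29.0% in IFE of pup 4, against 3.56% to 13.0% in the other 6 libraries. In CPM, Rn45s stood apart in those IFE libraries of pups 3 and 4 but did not pass the test between populations (log2 fold change -1.01, adjusted p = 0.216). Besides the genes for which this is said below, exonic bases shared with another gene made up 23.4% in Ccnd1, 20.4% in Gng2, 13.7% in Lef1, 12.4% in Serpinb2, 18.8% in Sox21, 18.8% in Spp1 and 63.5% in Trf. The differences between hair germ and IFE of pups 4 and 6 had a Pearson r of 0.473 over the 14176 genes tested, while the other 5 pairings of pups gave 0.0649 to 0.193. These correlations are across genes, which are not independent replicates. The feature miR200primary, a miR-200 transcript counted beside the annotated genes, stood at 0.176, 525, 1.39 and 797 CPM in hair germ and 3.83, 606, 2.63 and 714 CPM in IFE. It was high in both populations of pups 4 and 6, as their labels say, and did not pass the test between populations (log2 fold change -0.22, adjusted p = 0.714).

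The genes of the sort were checked first. Cdh3, which encodes P-cadherin, stood at 352, 421, 436 and 576 CPM in hair germ and 293, 281, 386 and 309 CPM in IFE. It was higher in hair germ in 4 of 4 pups, but the ranges overlapped and it did not pass the test (log2 fold change 0.48, SE 0.14, adjusted p = 0.0743). It passed with DESeq2 (adjusted p = 0.0154), voom (0.0297), library size alone (0.0252), a population-by-genotype term (0.0324) and the transgenic pups alone (0.0107), but in none of the fits that left out 1 pup (0.0718 to 0.361). These are the adjusted p of the log2 fold change of Cdh3, which was positive in every fit. Itga6, the α6 integrin gene, had a log2 fold change of -0.30 (adjusted p = 0.236) and Krt14 one of -0.22 (adjusted p = 0.379), and neither passed. The value of Krt14 turned positive, to 0.04, when libraries were scaled by size alone.

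Of the 14176 genes tested, 226 (1.59%) were higher in hair germ and 604 (4.26%) were lower, so 27.2% of the 830 calls (5.85% of genes) were rises. Differences of the same sign in all 4 pups were found for 1534 genes (10.8%) that were higher and 2108 (14.9%) that were lower, with no test. Of the called genes, 206 rises and 518 falls had the same sign in every pup, and 20 rises and 86 falls did not. All 4 hair germ libraries lay above all 4 IFE libraries for 446 genes (3.15%) and below them for 498 (3.51%). The counts given for gene lists below are to be read beside these shares of all genes.

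These counts depended on the scaling and on the transgenic pups. With library size alone in place of TMM the calls were 484 higher and 291 lower (62.5% higher), and the median log2 fold change of all genes tested moved from -0.03 to 0.23. Without pup 4 the counts were 30 higher and 46 lower, and without pup 6 they were 17 and 49. Leaving out a control pup instead, pup 3 or pup 5, gave 174 and 605 or 191 and 538. Without pup as a block, with 4 group means, the counts were 142 and 339. The transgenic pups alone gave 490 and 1121 calls and the control pups alone 1 and 1. All 830 called genes kept their direction in each of the 4 fits that left out 1 pup. They were called from these same pups, so a kept direction is no separate support. Of the 830 genes, 51 (17 higher, 34 lower) passed in all 4 fits. Those 51 are called pup-robust below. Each of the 4 fits keeps at least 1 transgenic pup, so the label does not show a difference in control pups alone. For a gene chosen after its values were seen, the label is a description. Each named gene that belongs to the 51 is marked so where it is described.

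**Figure D1:**
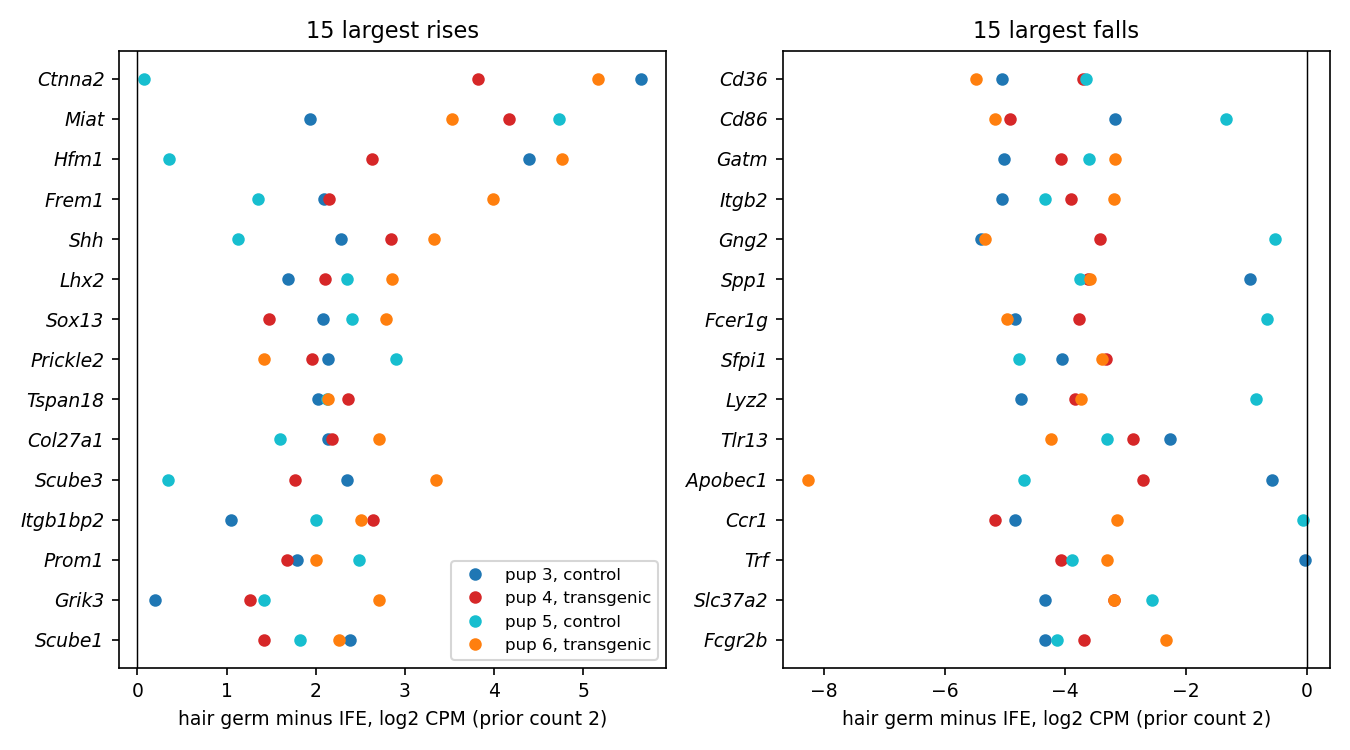
Hair germ minus IFE difference in log2 CPM (x axis, prior count 2) for the 15 largest rises and 15 largest falls with the same sign in every pup, 1 point per pup. Ctnna2, Hfm1 and Scube3 sit at 0.07, 0.35 and 0.34 in pup 5 and farther right in pups 3, 4 and 6, and the 4 points of Tspan18 lie between 2.02 and 2.36.

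Shh, the receptor gene Ptch1 and the factors Gli1 and Gli2 rose in hair germ. Of the 15 tested members of the Hedgehog list (17 listed), 6 rose (40%, against 1.59% of all genes) and 0 fell. Higher in every pup were 12, as were 10.8% of all genes. The list's median log2 fold change was 0.54, against -0.03 over all genes tested. The ligand gene Shh (chr5:28456815-28467256, minus strand) stood at 31.3, 42.8, 14.9 and 143 CPM in hair germ and 6.26, 5.8, 6.7 and 14 CPM in IFE. All 4 hair germ libraries were above all 4 IFE libraries, with pup 6 highest in both populations and the smallest step in pup 5 (log2 fold change 2.56, SE 0.35, adjusted p = 0.00216). Of its exonic bases, 15.7% overlap antisense genes in the annotation, and the labels and notes do not say whether strand was used in the counting.

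Gli1, the transcription factor whose own gene is a Hedgehog target, was at 333, 186, 228 and 176 CPM in hair germ and 91.4, 76.3, 128 and 65.2 CPM in IFE. The groups did not overlap, and the gene was pup-robust (log2 fold change 1.34, SE 0.17, adjusted p = 0.00167). Ptch1, the Patched receptor gene, stood at 1043, 463, 903 and 499 CPM in hair germ and 483, 244, 618 and 238 CPM in IFE. Both populations of the control pups 3 and 5 lay above the matching population of pups 4 and 6, so the groups overlapped although each pup's hair germ was higher (log2 fold change 0.91, SE 0.13, adjusted p = 0.00325). Gli2, the main activator among the Gli factors, rose too (log2 fold change 0.85, adjusted p = 0.00723), as did Kif7, a ciliary kinesin that regulates Gli proteins (1.16, adjusted p = 0.049), which shares 19.1% of its exonic bases with an antisense gene.

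The transducer gene Smo and the co-receptor genes Boc, Cdon and Gas1 did not pass. Smo was at 247, 175, 213 and 229 CPM in hair germ and 242, 116, 201 and 106 CPM in IFE, with the larger steps in pups 4 and 6. Cdon was at 255, 88.4, 220.3 and 68.4 CPM against 218, 93.4, 298 and 87.9 CPM, and was lower in hair germ in 3 of the 4 pups. Without pup 4, 4 members of the list rose, and without pup 6, 2. In the control pups alone 0 passed and the list's median was 0.30, in the transgenic pups alone 8 passed and it was 0.86. With library size alone 9 rose, with a median of 0.80 against 0.23 over all genes.

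**Figure D2:**
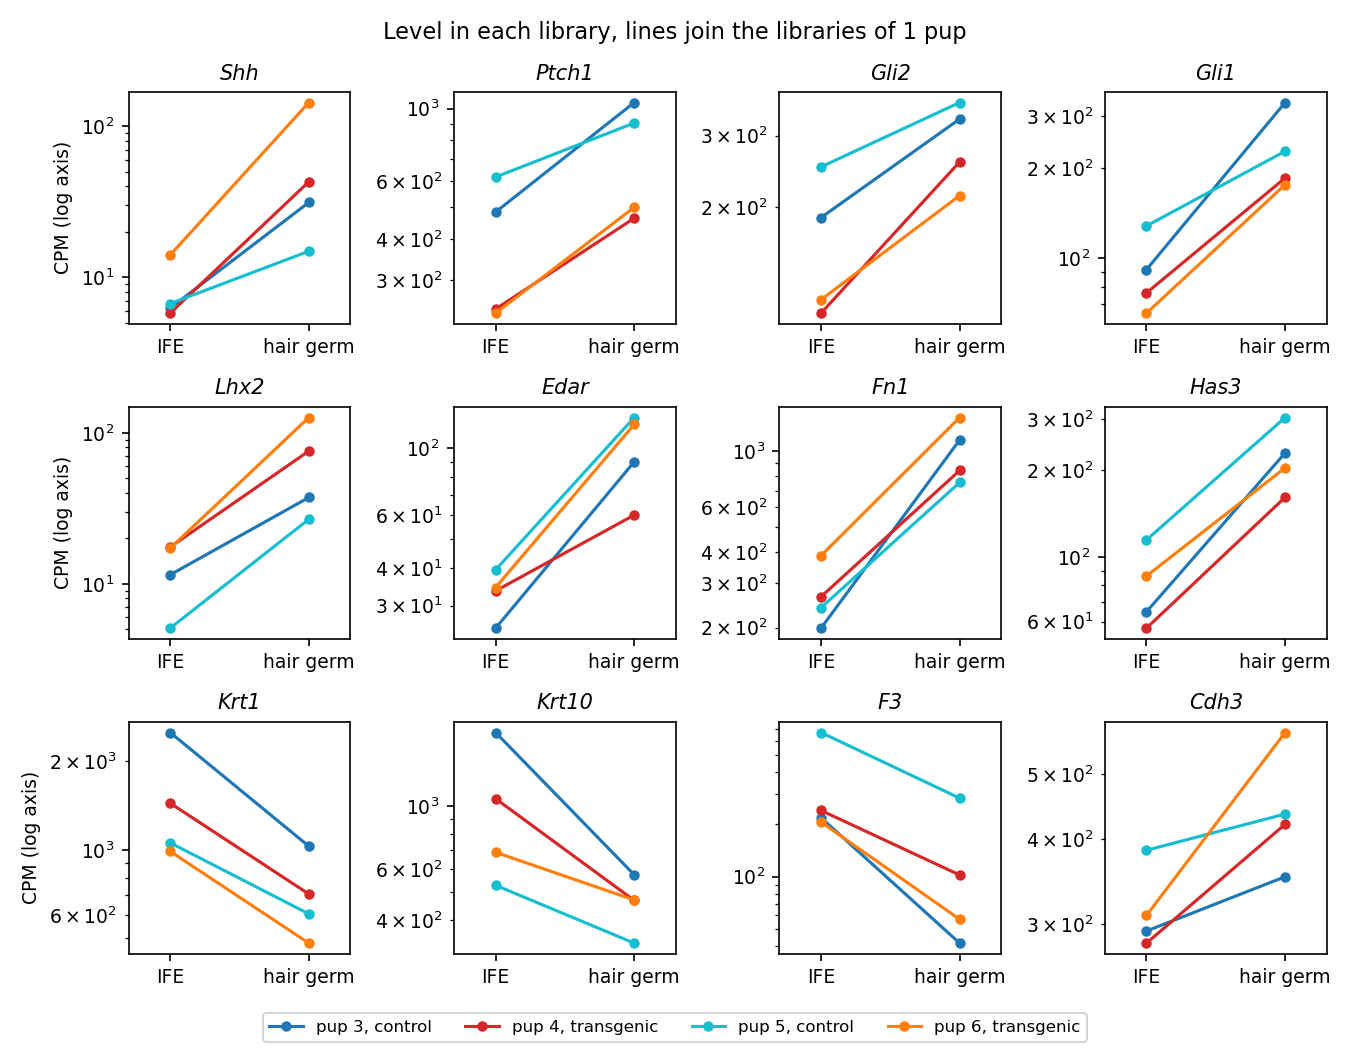
CPM (log axis) of 12 genes in IFE and hair germ, 1 line per pup. Every line slopes upward for Shh, Ptch1, Gli1, Gli2, Lhx2, Edar, Fn1, Has3 and Cdh3 and downward for Krt1, Krt10 and F3, and the steps of Cdh3 are small in pups 3 and 5.

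Of the 27 tested follicle transcription factors (32 listed), 5 rose (18.5%, against 1.59% of all genes) and 0 fell, with a median of 0.64. The 5 were Lhx2, Sox21, Sox4, Sox9 and Nfib. Lhx2 (chr2:38339281-38369733, plus strand), a homeobox gene of follicle progenitors, stood at 37.3, 75.7, 26.8 and 126 CPM in hair germ and 11.5, 17.5, 5.09 and 17.2 CPM in IFE. It was pup-robust, with steps of 1.68 to 2.86 on the log2 scale and no overlap (log2 fold change 2.34, SE 0.25, adjusted p = 0.000628). Sox9, a factor of follicle stem cells, was at 224, 170.5, 232 and 147 CPM against 108, 96.8, 187 and 96.8 CPM. Its IFE value in pup 5 lay above the hair germ values of pups 4 and 6, so the groups overlapped (log2 fold change 0.69, SE 0.15, adjusted p = 0.0256). Sox21, a factor of hair shaft cells, rose by 1.12 (adjusted p = 0.01) and Nfib, a factor of follicle stem cells, by 0.60 (adjusted p = 0.0235). Sox4 rose by 0.78 (adjusted p = 0.0467) but was lower in hair germ of pup 5, and 54.6% of its exonic bases overlap an antisense gene. Without pup 4 or without pup 6, 1 member of the list passed, and with library size alone 10 did.

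Hair shaft and inner root sheath genes mark later follicles. Of the 24 listed, 5 passed the filter on low counts, and 0 passed the test. Their summed level was 14.3 to 48.2 CPM in hair germ and 6.36 to 44 CPM in IFE. Hoxc13, a hair shaft factor, was at 0, 6.86, 0.73 and 12.8 CPM in hair germ and 0, 1.48, 0 and 1.43 CPM in IFE (log2 fold change 2.88, adjusted p = 0.063). Tchh, which encodes trichohyalin of the inner root sheath, had a log2 fold change of 0.71 (adjusted p = 0.503).

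A small number of Wnt genes rose. Of 29 tested Wnt ligands and receptors 2 rose (6.9%, against 1.59% of all genes) and 0 fell, and of 25 tested effectors, targets and inhibitors 3 rose (12%) and 0 fell, with medians of 0.29 and 0.50. Fzd7, a Frizzled receptor, rose by 0.72 (adjusted p = 0.0259) and Lgr6, an R-spondin receptor of skin stem cells, by 0.69 (adjusted p = 0.0179). Nkd1, a feedback inhibitor induced by Wnt, was at 9.75, 16, 15.8 and 8.72 CPM in hair germ and 1.22, 0.944, 5 and 4.15 CPM in IFE. The groups did not overlap, although the steps were smaller in pups 5 and 6 than in pups 3 and 4 (log2 fold change 2.01, SE 0.49, adjusted p = 0.0342). Dkk3, of the Dickkopf family, rose by 1.15 (adjusted p = 0.0143) and Ccnd1, cyclin D1, by 0.57 (adjusted p = 0.036). Lef1, the nuclear partner of β-catenin, stood at 169.6, 62.9, 232 and 91.4 CPM against 94, 44.2, 205 and 78.2 CPM. It was higher in hair germ in 4 of 4 pups and did not pass (log2 fold change 0.43, SE 0.16, adjusted p = 0.147). None of these genes was pup-robust, and without pup 4 or without pup 6, 0 members of either list passed.

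Edar, the ectodysplasin receptor of hair placodes, rose, as 1 of 18 tested genes of its list (5.56%, against 1.59% of all genes). It stood at 90.2, 60, 127 and 120.1 CPM in hair germ and 25.2, 33.6, 39.4 and 34.4 CPM in IFE, with no overlap and the smallest step in pup 4 (log2 fold change 1.55, SE 0.20, adjusted p = 0.00187). In the same list of 18 tested genes 2 fell (11.1%, against 4.26% of all genes), both inhibitors of NF-κB that are also its targets. On the log2 scale Nfkbia, the inhibitor IκBα, fell by 0.71 (adjusted p = 0.0175), and Tnfaip3, the ubiquitin-editing enzyme A20, by 0.95 (adjusted p = 0.00529). For both, all hair germ libraries lay below all IFE libraries. The list's median was -0.24, and 0.02 with library size alone.

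In the list of BMP, TGF-beta and activin genes 4 of 39 tested members rose (10.3%, against 1.59% of all genes). Another 2 fell (5.13%, against 4.26% of all genes), and the median was 0.20. Tgfb3, a TGF-beta ligand, was at 81.5, 62.5, 60 and 100 CPM in hair germ and 26.5, 29.8, 20.5 and 32.1 CPM in IFE, with no overlap (log2 fold change 1.47, SE 0.19, adjusted p = 0.00172). Sostdc1, a secreted inhibitor of BMP and Wnt signals at the placode, was at 317, 323, 148 and 260.2 CPM against 147, 152, 71.9 and 141 CPM. Its step was close to 1 on the log2 scale in each pup (log2 fold change 1.03, SE 0.13, adjusted p = 0.00153). Both genes were pup-robust. Bmp3, an antagonist of other BMPs, rose by 1.39 (adjusted p = 0.0342), and Ctgf, a matricellular protein induced by TGF-beta, by 1.39 (adjusted p = 0.00746), with 23.2% of its exonic bases shared with an antisense gene. The receptor genes fell. Tgfbr2 was at 133, 97, 146 and 94.2 CPM in hair germ and 229.7, 199, 253 and 189 CPM in IFE, lower in every pup with no overlap (log2 fold change -0.91, SE 0.13, adjusted p = 0.00391). Tgfbr1 was at 67.5, 91.6, 68.9 and 91.3 CPM against 96.2, 494, 98.9 and 464 CPM, with the high values in IFE of the transgenic pups 4 and 6 (log2 fold change -1.48, SE 0.32, adjusted p = 0.0206).

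Growth factor pathways moved in both directions. Of 26 tested FGF, EGF and PDGF genes 3 rose (11.5%, against 1.59% of all genes) and 2 fell (7.69%, against 4.26%). The median of -0.08 turned positive (0.19) with library size alone. Fgfr1, an FGF receptor, rose by 1.16 (adjusted p = 0.00391), Etv4, an ETS factor induced by FGF signals, by 1.3 (adjusted p = 0.00932), and Pdgfa, a ligand that epithelium sends to the dermis, by 0.97 (adjusted p = 0.00606). For these 3 genes the hair germ libraries lay above all IFE libraries, and 26.1% of Pdgfa's exonic bases overlap an antisense gene. Errfi1, a feedback inhibitor of the EGF receptor, was at 64.9, 75.8, 169 and 70.7 CPM in hair germ and 141, 144, 348 and 152 CPM in IFE. Pup 5 was highest in both populations, so ranges overlapped, but the fall was near 1 in every pup and pup-robust (log2 fold change -1.05, SE 0.14, adjusted p = 0.00177). Epgn, the EGF-family ligand epigen, fell by 1.08 (adjusted p = 0.0112). Of 18 tested Notch genes 1 fell (5.56%, near the 4.26% of all genes), and the median was -0.08, and 0.18 with library size alone. It was Rbpj, the DNA-binding factor of the pathway (log2 fold change -0.87, SE 0.22, adjusted p = 0.0388), with IFE values of 103, 242, 117 and 253 CPM.

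Upstream sequences were searched for short motifs in the called genes of the Hedgehog, Wnt, Eda and NF-κB, follicle factor and suprabasal lists, the 15 largest rises and falls and the called genes set by name. RefSeq promoter entries (GRCm38.p6, 250 bases before to 50 after the start) were found for 21 of 29 genes that rose, as 27 promoters, and for 15 of 22 that fell, as 18 promoters. The first motif was the TCF/LEF core, CTTTGA. For Gli proteins the letters searched were GACCACCCA. For AP-1 they were TGACTCA. Each was searched on both strands, and none contains another. The TCF/LEF core was present in 4 promoters of genes that rose (14.8%), against 16% of all 32851 promoters, and in 1 promoter of genes that fell (5.56%). The GLI site was found in 0 of either set and in 0.253% of all promoters. The AP-1 site was in 1 promoter of genes that rose (3.7%), in 2 of genes that fell (11.1%) and in 5.2% of all. With 27 and 18 promoters, these shares are not read as different from those of all promoters. A match is a description of letters, not a binding site. The 250 bases before the start are shown for 3 genes that rose and hold the TCF/LEF core, in capitals, and for Ptch1, which holds none of the 3 motifs. All are on the minus strand and written 5′ to 3′.
Edar, chr10:58675697-58675946: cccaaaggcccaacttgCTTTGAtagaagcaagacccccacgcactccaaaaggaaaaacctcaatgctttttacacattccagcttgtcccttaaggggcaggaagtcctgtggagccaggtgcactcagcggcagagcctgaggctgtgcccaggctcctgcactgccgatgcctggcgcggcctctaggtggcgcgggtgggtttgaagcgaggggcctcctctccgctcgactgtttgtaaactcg
Prickle2, chr6:92567367-92567616: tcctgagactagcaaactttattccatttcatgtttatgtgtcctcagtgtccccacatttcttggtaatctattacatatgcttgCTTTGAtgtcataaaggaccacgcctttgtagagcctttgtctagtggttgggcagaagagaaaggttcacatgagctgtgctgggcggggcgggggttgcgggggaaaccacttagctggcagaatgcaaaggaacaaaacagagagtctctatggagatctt
Sox21, chr14:118237031-118237280: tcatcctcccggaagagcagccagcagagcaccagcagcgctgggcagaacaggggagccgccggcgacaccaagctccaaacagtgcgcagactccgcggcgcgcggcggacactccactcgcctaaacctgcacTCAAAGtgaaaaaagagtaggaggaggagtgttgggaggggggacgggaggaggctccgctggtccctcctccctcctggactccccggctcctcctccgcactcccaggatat
Ptch1, chr13:63565736-63565985: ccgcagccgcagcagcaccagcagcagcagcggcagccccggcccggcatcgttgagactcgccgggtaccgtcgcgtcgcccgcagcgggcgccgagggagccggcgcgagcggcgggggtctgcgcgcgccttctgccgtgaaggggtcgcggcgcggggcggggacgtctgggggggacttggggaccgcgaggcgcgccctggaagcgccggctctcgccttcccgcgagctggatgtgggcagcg

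Matrix genes formed the other large group of rises. Of 36 tested basement membrane and matrix genes 10 rose (27.8%, against 1.59% of all genes) and 1 fell (2.78%, against 4.26%), with a median of 0.45. Higher in every pup were 15, as were 10.8% of all genes. Fn1, fibronectin (chr1:71585520-71653200, minus strand), stood at 1111, 840.4, 753 and 1363 CPM in hair germ and 199, 265, 240.0 and 386 CPM in IFE. The lowest hair germ library was above the highest IFE library, and the gene was pup-robust (log2 fold change 1.90, SE 0.15, adjusted p = 0.000213). Frem1, a basement membrane protein of the Fraser complex, was at 26.6, 32.5, 10.3 and 100.1 CPM against 6.09, 7.14, 3.9 and 6.12 CPM, with the largest step in pup 6 (log2 fold change 2.67, SE 0.41, adjusted p = 0.00441). The collagen IV genes rose, Col4a1 by 0.97 (pup-robust, adjusted p = 0.0022) and Col4a2 by 0.93 (adjusted p = 0.0056). So did Fbln2, fibulin 2 (1.08, adjusted p = 0.00643), and Hspg2, the proteoglycan perlecan (0.69, adjusted p = 0.0109). The other 4 were Frem2, Lama5, Smoc2 and Vwa2.

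Nid2, a nidogen, was the member that fell (log2 fold change -2.70, SE 0.60, adjusted p = 0.0192), from IFE values of 4.18, 36.7, 0.17 and 39.5 CPM that were high only in pups 4 and 6. Leaving out pup 4 left 3 rises in the matrix list and leaving out pup 6 left 2, while library size alone gave 14. Outside the list, Col27a1, a fibrillar collagen, was at 83.7, 66.9, 77.4 and 110.3 CPM in hair germ and 18.8, 14.6, 25.4 and 16.7 CPM in IFE, pup-robust with no overlap (log2 fold change 2.16, SE 0.22, adjusted p = 0.000498). Has3, a hyaluronan synthase, was at 229, 161, 304 and 204 CPM against 64.9, 57, 115 and 86.2 CPM, and Adamts17, a matrix metalloprotease, was at 88.1, 134, 92.2 and 205 CPM against 20.2, 53.5, 20.8 and 74.5 CPM. Both were pup-robust with no overlap between the populations (log2 fold changes 1.48 and 1.73, SE 0.15 and 0.19, adjusted p = 0.000492 and 0.000739). Chst2, a sulfotransferase of glycan chains, was pup-robust too, with no overlap (log2 fold change 1.63, adjusted p = 0.00124). These last 3 genes were chosen after their values were seen.

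Integrin genes fell or did not pass. Of 17 tested, 6 fell (35.3%, against 4.26% of all genes) and 0 rose, with a median of -0.30. Itgb1, the common partner of basal integrins, was at 286, 351, 554 and 367 CPM in hair germ and 432, 489, 747 and 564 CPM in IFE, lower in every pup with overlapping ranges (log2 fold change -0.53, SE 0.12, adjusted p = 0.0231). Itgb6, a partner of αv, fell by 0.97 (adjusted p = 0.0287), and Itgav, the αv chain itself, by 1.06 (adjusted p = 0.0133), with IFE values of 217, 420.0, 201 and 317 CPM that were highest in pups 4 and 6. Itga9, which binds tenascin, was at 4.65, 5.81, 1.39 and 2.18 CPM against 5.39, 52, 7.89 and 48 CPM, with the high IFE values in pups 4 and 6 (log2 fold change -2.78, SE 0.50, adjusted p = 0.00933). Itga4, which pairs with Itgb1 on leukocytes as well, fell by 1.42 (adjusted p = 0.048), and its IFE values of 9.74, 78.2, 14.3 and 79.4 CPM were high in pups 4 and 6 only. In pup 3 it was higher in hair germ, at 11.5 CPM. Itga5, the fibronectin receptor chain, fell by 0.66 (adjusted p = 0.0486). Without pup 4 or without pup 6, 0 of the list passed, and with library size alone 1 fell.

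Among cell contact genes the largest value was that of Ctnna2, the α-catenin of neural tissue, which links cadherins to actin. It stood at 61.8, 61.3, 4.65 and 63.6 CPM in hair germ and 1.04, 4.18, 4.41 and 1.59 CPM in IFE (log2 fold change 3.71, SE 0.68, adjusted p = 0.00932). Hair germ of pup 5 lacked the rise, with a value close to its own IFE. Ctnna2 was the 1 of 20 tested adherens junction genes to pass (5%, against 1.59% of all genes that rose). Cgnl1, paracingulin, a junction scaffold, was at 58.6, 66.2, 68.3 and 68.2 CPM against 13.6, 16.3, 19.4 and 17 CPM, pup-robust and even across pups (log2 fold change 1.97, SE 0.20, adjusted p = 0.000498). It was the 1 rise among 16 tested tight junction genes (6.25%, against 1.59% of all genes), of which 3 fell (18.8%, against 4.26%). Cldn4, a claudin, was at 27.1, 70.3, 84.7 and 73.4 CPM in hair germ and 92.8, 178, 219 and 133 CPM in IFE, pup-robust with no overlap (log2 fold change -1.32, SE 0.17, adjusted p = 0.00173). Cldn1 fell by 0.69 (adjusted p = 0.0206) and Ocln, occludin, by 0.84 (adjusted p = 0.0273). The tight junction median was -0.10, and it turned positive with library size alone (0.16) or without pup 5 (0.03).

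Of 23 tested planar cell polarity genes 2 rose (8.7%, against 1.59% of all genes) and 0 fell. Prickle2, a core polarity gene, was at 22.8, 11.5, 17.7 and 4.36 CPM in hair germ and 5.05, 2.83, 2.21 and 1.51 CPM in IFE. Each pup rose, although the hair germ value of pup 6 lay below the IFE value of pup 3 (log2 fold change 2.29, SE 0.45, adjusted p = 0.0133). Vangl2, another core gene, rose by 0.86 (adjusted p = 0.0245). Dlg5, a scaffold of the apical-basal polarity list, rose by 0.56 (adjusted p = 0.042). It was the 1 of 20 tested members to rise (5%, against 1.59% of all genes). Of 13 tested desmosome genes 0 rose and 2 fell (15.4%, against 4.26% of all genes), Dsg1a (-0.79, adjusted p = 0.0175) and Dsg1b (-1.21, adjusted p = 0.0446). They are near-identical copies whose reads the counting may have split. With library size alone 0 desmosome genes fell, and the median went from -0.22 to 0.05.

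Of 41 tested guidance and ephrin genes 6 rose (14.6%, against 1.59% of all genes) and 2 fell (4.88%, against 4.26%). The median was 0.37. Nrp2, a neuropilin receptor for semaphorins, gave the largest value. It was at 116, 119, 98.5 and 241 CPM in hair germ and 23.3, 99.1, 33.8 and 70.6 CPM in IFE, and pup 4 contributed little (log2 fold change 1.43, SE 0.27, adjusted p = 0.0112). Sema6a and Sema5a, semaphorins, rose by 0.99 (adjusted p = 0.0289) and 0.79 (adjusted p = 0.0237). Robo1, a Slit receptor, rose by 0.86 (adjusted p = 0.0173), Efnb1, an ephrin, by 0.78 (adjusted p = 0.0316) and Plxnb1, a plexin, by 0.63 (adjusted p = 0.0424). Epha2, an ephrin receptor of epidermis, fell by 0.59 (adjusted p = 0.0379), and Sema4d, a semaphorin also made by leukocytes, by 0.77 (adjusted p = 0.0468). Without pup 4, 1 member of the list rose, and without pup 6, 0.

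**Figure D3:**
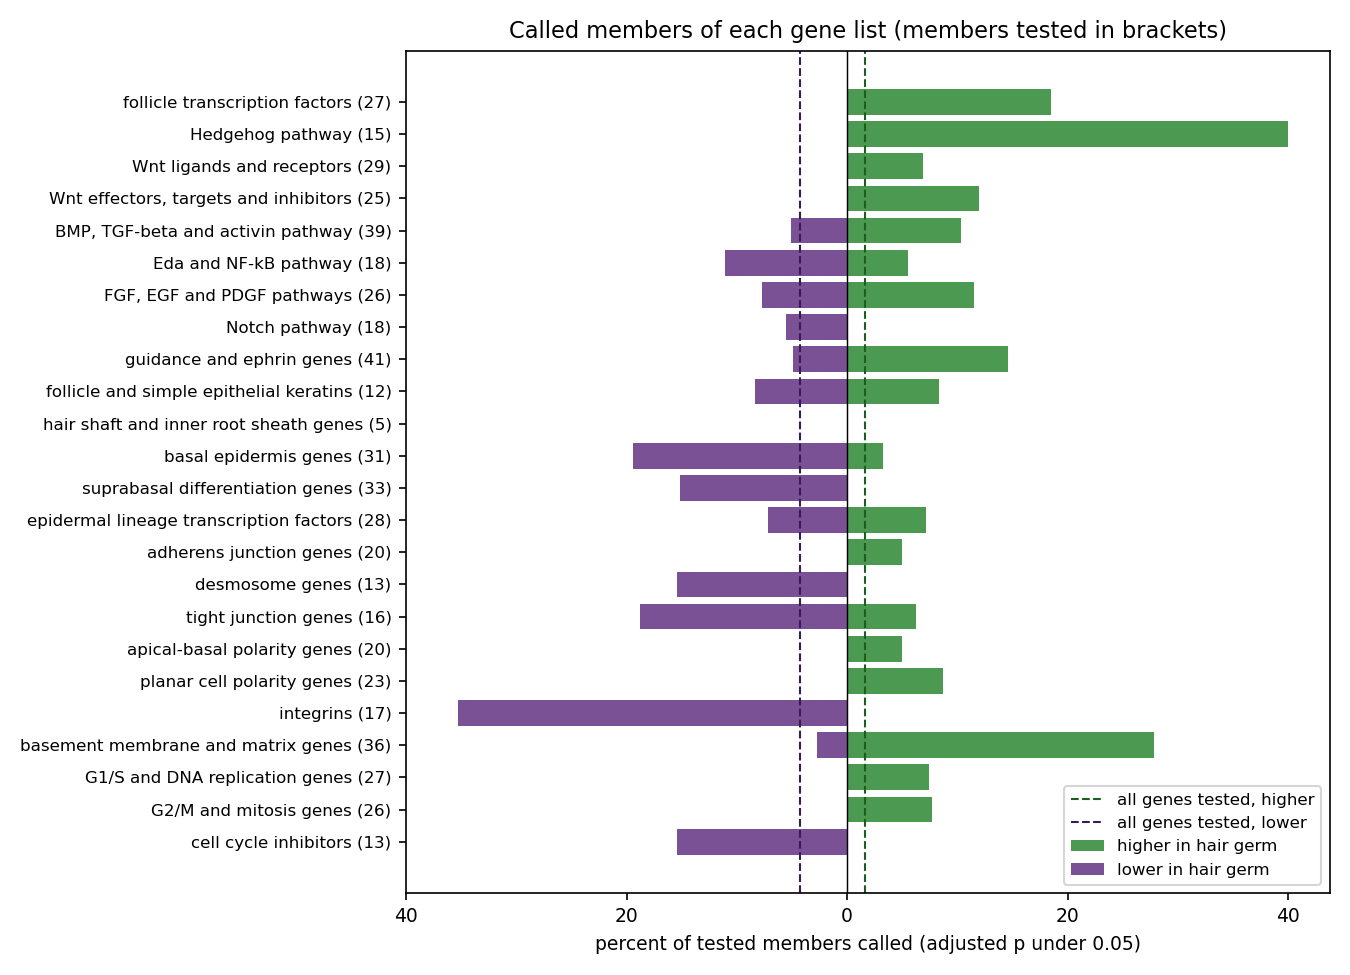
Percent of the tested members of the follicle, signalling, epidermis, adhesion and cell cycle lists that were higher (right, green) or lower (left, purple) in hair germ, with dashed lines at the 1.59% and 4.26% of all genes tested. Among the lists drawn, Hedgehog (40%) and basement membrane and matrix genes (27.8%) reach farthest to the right and integrins (35.3%) to the left; with library size alone 1 integrin gene of the 17 was lower.

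Some suprabasal genes fell in hair germ, the keratins 1 and 10 among them. Of 33 tested differentiation genes 0 rose and 5 fell (15.2%, against 4.26% of all genes), and the median was -0.30. Lower in every pup were 12, as were 14.9% of all genes. Krt1 (chr15:101845426-101850794, minus strand), a keratin of suprabasal cells, stood at 1029.8, 708, 606 and 482 CPM in hair germ and 2507, 1442, 1058 and 989 CPM in IFE. The fall was of similar size in every pup and pup-robust, although pups differed enough for the ranges to overlap (log2 fold change -1.04, SE 0.12, adjusted p = 0.00101). Krt10, its partner, was at 575, 468, 332 and 469 CPM against 1800.5, 1058, 528 and 688 CPM, with larger steps in pups 3 and 4 than in pups 5 and 6 (log2 fold change -1.01, SE 0.17, adjusted p = 0.00705). Tgm1, the transglutaminase of the cornified envelope, was at 2.9, 6.6, 7.77 and 8.96 CPM in hair germ and 11.8, 19.5, 22.3 and 16.7 CPM in IFE, with no overlap (log2 fold change -1.45, SE 0.35, adjusted p = 0.0316). Ovol1, a factor of the step from basal to suprabasal cells, fell by 0.86 (adjusted p = 0.00693), with 19.8% of its exonic bases shared with an antisense gene. Dsg1a, named above, was the other. With library size alone 2 fell and the median was -0.04, against 0.23 over all genes. Leaving out pup 4 left 1 fall and leaving out pup 6 left 2.

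More basal epidermis genes fell than rose, except with library size alone. Of 31 tested, 1 rose (3.23%, against 1.59% of all genes) and 6 fell (19.4%, against 4.26%). The rise was that of Tfap2a, an epidermal AP-2 factor (0.62, adjusted p = 0.0314). Below 0 were 22 of the 31, with a median of -0.07, and with library size alone 2 rose, 1 fell and the median was 0.20. Thbs1, thrombospondin 1, was at 1058, 2156, 3374 and 1951 CPM in hair germ and 2397, 2823, 6827 and 2371 CPM in IFE, with the largest steps in pups 3 and 5 (log2 fold change -0.72, SE 0.16, adjusted p = 0.0233). Aqp3, the glycerol channel of basal keratinocytes, fell by 0.76 (adjusted p = 0.00895), and Ly6d, a surface protein of stratified epithelium, by 0.78 (adjusted p = 0.0227). The metallothionein genes Mt1 and Mt2 fell by 0.83 (adjusted p = 0.0157) and 1.51 (adjusted p = 0.0304). They are close copies, and 73.5% of Mt2's exonic bases overlap an antisense gene. Among 28 tested epidermal lineage factors 2 rose (7.14%, against 1.59% of all genes), Tfap2a and Tfap2b (0.62, adjusted p = 0.0304). Another 2 fell (7.14%, against 4.26%), Ovol1 among them.

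Follicle keratins split. Krt17, a keratin of the placode and outer root sheath, was at 1604, 2935, 1819.9 and 2313 CPM in hair germ and 998, 1240.2, 1354 and 1278 CPM in IFE, above IFE in every library (log2 fold change 0.80, SE 0.14, adjusted p = 0.0078). Krt16, a keratin of activated epidermis, was at 101, 178, 213 and 114 CPM against 202, 301, 517 and 356 CPM, lower in each pup and pup-robust (log2 fold change -1.17, SE 0.16, adjusted p = 0.00216). These genes have near-identical relatives, so part of their reads may be misassigned. The 1 rise and 1 fall made up 8.33% each of the 12 tested members, against 1.59% and 4.26% of all genes, and the other 10 did not pass.

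Several genes that fell in hair germ belong to none of the lists and were chosen after their values were seen. F3, tissue factor, which starts blood coagulation, was at 41.5, 102, 282 and 56.9 CPM in hair germ and 218, 239.9, 672 and 206 CPM in IFE. Pup 5 was highest in both populations, and each pup's hair germ was lower (log2 fold change -1.66, SE 0.19, adjusted p = 0.001). Serpinb2, a plasminogen activator inhibitor, was at 16.9, 97, 267 and 102 CPM against 175, 267, 712 and 290.4 CPM, with a step of -3.36 in pup 3 and of -1.42 to -1.50 in the other 3 (log2 fold change -1.85, SE 0.26, adjusted p = 0.00311). Stfa3, a stefin, or cysteine protease inhibitor, of a family of close copies, was at 76.9, 98.6, 52.5 and 115 CPM in hair germ and 505, 290.3, 104 and 317 CPM in IFE (log2 fold change -1.68, SE 0.23, adjusted p = 0.00243). Igf2, the imprinted insulin-like growth factor, was at 356, 62.2, 194 and 22.2 CPM against 791, 140.0, 739.8 and 124 CPM (log2 fold change -1.65, SE 0.20, adjusted p = 0.00133). It was higher in the control pups of both populations, and 62.8% of its exonic bases are shared with a gene on the same strand. Anxa1, annexin A1, fell by 0.86 (adjusted p = 0.00231) with no overlap, Rnd3, a regulator of the actin cytoskeleton, by 0.78 (adjusted p = 0.00411), and Pmaip1, the death-promoting protein Noxa, by 0.97 (adjusted p = 0.00191). All 7 genes were pup-robust, which is no separate support for genes chosen in this way.

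The steepest rises were in 2 little-described genes, also chosen after their values were seen. Gm6537, listed as Ccer2 in the annotation (chr7:28756174-28758968, plus strand), had the smallest adjusted p of all genes. It stood at 43, 341, 44.5 and 119 CPM in hair germ and 1.04, 1.48, 0.339 and 3.85 CPM in IFE, far above IFE in each pup (log2 fold change 6.06, SE 0.35, adjusted p = 7.9e-07). Of its exonic bases, 29.8% overlap Nfkbib on the other strand. The lincRNA gene 1700028I16Rik (chr10:82812123-82824242, plus strand) was at 28.6, 58.8, 0 and 93.2 CPM in hair germ and 0.174, 0.27, 0.509 and 0.68 CPM in IFE. It was high in hair germ of 3 pups and had 0 counts in hair germ of pup 5 (log2 fold change 6.57, SE 0.63, adjusted p = 0.000311). Miat, a long noncoding RNA (chr5:112213228-112229395, minus strand), was at 19.2, 95.3, 9.36 and 65.6 CPM against 4.87, 5.12, 0.17 and 5.51 CPM, above IFE in every library (log2 fold change 3.61, SE 0.40, adjusted p = 0.000492), with 24.3% of its exonic bases shared with an antisense gene. All 3 passed in each fit that left out 1 pup and so count as pup-robust, although 1700028I16Rik was not higher in hair germ of pup 5.

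Tspan18, a tetraspanin, was at 41.6, 54.1, 83.5 and 114 CPM in hair germ and 10.1, 10.4, 19 and 25.6 CPM in IFE, with a step of about 2 in every pup and pup-robust (log2 fold change 2.17, SE 0.20, adjusted p = 0.000311). Scube1 and Scube3 encode secreted proteins with EGF and CUB domains, and rose by 2.02 (adjusted p = 0.00542) and 2.15 (adjusted p = 0.0274). The 15 largest rises among called genes with the same sign in every pup and a mean log2 CPM of at least 2 also held Prom1, which encodes the membrane protein CD133 (2.08, adjusted p = 0.0112), the SoxD factor Sox13 (2.31, adjusted p = 0.00672), Itgb1bp2 (2.12, adjusted p = 0.0306) and the glutamate receptor subunit Grik3 (2.03, adjusted p = 0.0309). Hfm1, known as a meiotic DNA helicase, was at 47.7, 23.5, 2.32 and 25.4 CPM in hair germ and 2.09, 3.64, 1.78 and 0.755 CPM in IFE (log2 fold change 3.39, SE 0.65, adjusted p = 0.00937).

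Hair germ of pup 5 went without the rise of several genes that were strong in the other pups. Plekhh2 was at 1573, 1392, 164 and 1200.4 CPM in hair germ and 139, 137, 203 and 68.5 CPM in IFE. Pdpn, podoplanin, a surface glycoprotein, was at 177, 106, 9.76 and 109 CPM against 14.3, 12.7, 13.6 and 14.3 CPM, and Spire2, an actin nucleator, was at 56.2, 63.6, 4.58 and 58.5 CPM against 3.31, 6.2, 5.77 and 3.85 CPM. In all 3, hair germ of pups 3, 4 and 6 was far above IFE, while hair germ of pup 5 was below its own IFE. The 3 passed the test nonetheless (2.82, 2.42 and 2.90 on the log2 scale, adjusted p = 0.0184, 0.0166 and 0.0116). They were chosen after their values were seen, and Ctnna2, Hfm1 and 1700028I16Rik, given above, were at or near their IFE level in pup 5 as well. Pup 5 is the control that carried pTRE2-200bcl without K14rtTA, and what sets it apart from the other pups was not tested.

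A few cell cycle genes rose, by small amounts. Of 27 tested G1/S and replication genes 2 rose (7.41%, against 1.59% of all genes), Ccnd1 and Chaf1a. Chaf1a, a histone chaperone subunit, rose by 0.97 (adjusted p = 0.0272), and 52.5% of its exonic bases overlap Ubxn6. Of 26 tested G2/M genes 2 rose (7.69%), the mitotic genes Tpx2 (0.59, adjusted p = 0.0441) and Cenpf (0.51, adjusted p = 0.0432). Both lists had a median of 0.29, and 11 and 13 of their members were higher in every pup, as were 10.8% of all genes. Without pup 4 or without pup 6 no member passed. Of 13 tested cell cycle inhibitors 2 fell (15.4%, against 4.26% of all genes). These were the antiproliferative genes Btg1 (-0.55, adjusted p = 0.0357) and Btg2 (-0.60, adjusted p = 0.0141).

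A few genes of the early response to handling and stress fell in hair germ. Of 23 tested immediate early and heat shock genes 0 rose and 4 fell (17.4%, against 4.26% of all genes). The median of -0.16 turned positive (0.11) with library size alone, where 1 fell. Klf6, an early response factor, was at 421, 612, 779 and 516 CPM in hair germ and 741, 1005, 1533 and 1000.4 CPM in IFE and was pup-robust (log2 fold change -0.87, SE 0.12, adjusted p = 0.00192). Zfp36, which destabilises mRNAs, fell by 1.24 (adjusted p = 0.00457), Atf3 by 0.65 (adjusted p = 0.0229) and Nr4a1 by 0.64 (adjusted p = 0.0355). Their summed level was 12854 to 14588 CPM in hair germ and 13472 to 21637 CPM in IFE. Of 15 housekeeping genes 2 fell (13.3%, against 4.26% of all genes), with a median of -0.25, and 0.0081 with library size alone. They were Actb, cytoplasmic actin (-0.62, adjusted p = 0.0296), and Gusb, a lysosomal enzyme at 18.8, 159, 16.3 and 135 CPM in IFE (-1.76, adjusted p = 0.0129). The part of cell handling in the other falls was not tested. Of 19 mitochondrial and 24 sterol genes 0 passed.

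Markers of myeloid cells fell. In bulk samples fewer cells of a type and less RNA per cell cannot be told apart. Of 18 tested macrophage and myeloid markers 17 fell (94.4%, against 4.26% of all genes), with a median of -2.73. The summed level of the list was 218, 507, 88.6 and 320.4 CPM in hair germ and 329.6, 4936, 144 and 3678 CPM in IFE. IFE of the transgenic pups 4 and 6 stood far above the other 6 libraries. In the control pups alone 0 passed and the median was -0.59, and without pup 4 or without pup 6, 4 fell. With library size alone 13 fell, with a median of -2.46.

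Lyz2, the lysozyme of macrophages, was at 0, 23.5, 2.72 and 17.6 CPM in hair germ and 4.87, 339, 5 and 237 CPM in IFE (log2 fold change -3.47, SE 0.42, adjusted p = 0.000714). Csf1r, the receptor of the macrophage growth factor, was at 61, 124, 14.5 and 64.3 CPM against 67.7, 968, 26.3 and 706 CPM. Cd36, a scavenger receptor, gave the largest fall among called genes with the same sign in every pup and a mean log2 CPM of at least 2. It was at 0, 8, 0 and 1.94 CPM in hair germ and 6.09, 106, 2.21 and 94.9 CPM in IFE (log2 fold change -4.44, SE 0.44, adjusted p = 0.000311). Spp1, osteopontin, was at 0, 18.8, 0 and 24.6 CPM against 0.174, 234, 2.38 and 299 CPM (log2 fold change -3.65, SE 0.28, adjusted p = 0.000204). Of these, Lyz2, Cd36 and Spp1 were pup-robust, and every hair germ library lay below its own IFE library, although both Spp1 values of pup 3 are under the floor of 3 counts. The other large falls were Cd86, Gatm, Itgb2, Gng2, Fcer1g, Sfpi1, Tlr13, Apobec1, Ccr1, Trf, Slc37a2 and Fcgr2b, from -4.18 to -3.20 on the log2 scale. Of these, Gatm, Itgb2, Sfpi1, Slc37a2 and Tlr13 were pup-robust. Among them Itgb2, Fcer1g, Sfpi1 (PU.1), Tlr13, Ccr1 and Fcgr2b are leukocyte genes, and Cd86 and the others are not classed here. The IFE values of Itga4, Itga9, Itgav, Tgfbr1, Rbpj, Nid2, Gusb and Zeb1 were highest in the same libraries of pups 4 and 6, and the part of myeloid cells in these falls was not tested.

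**Figure D4:**
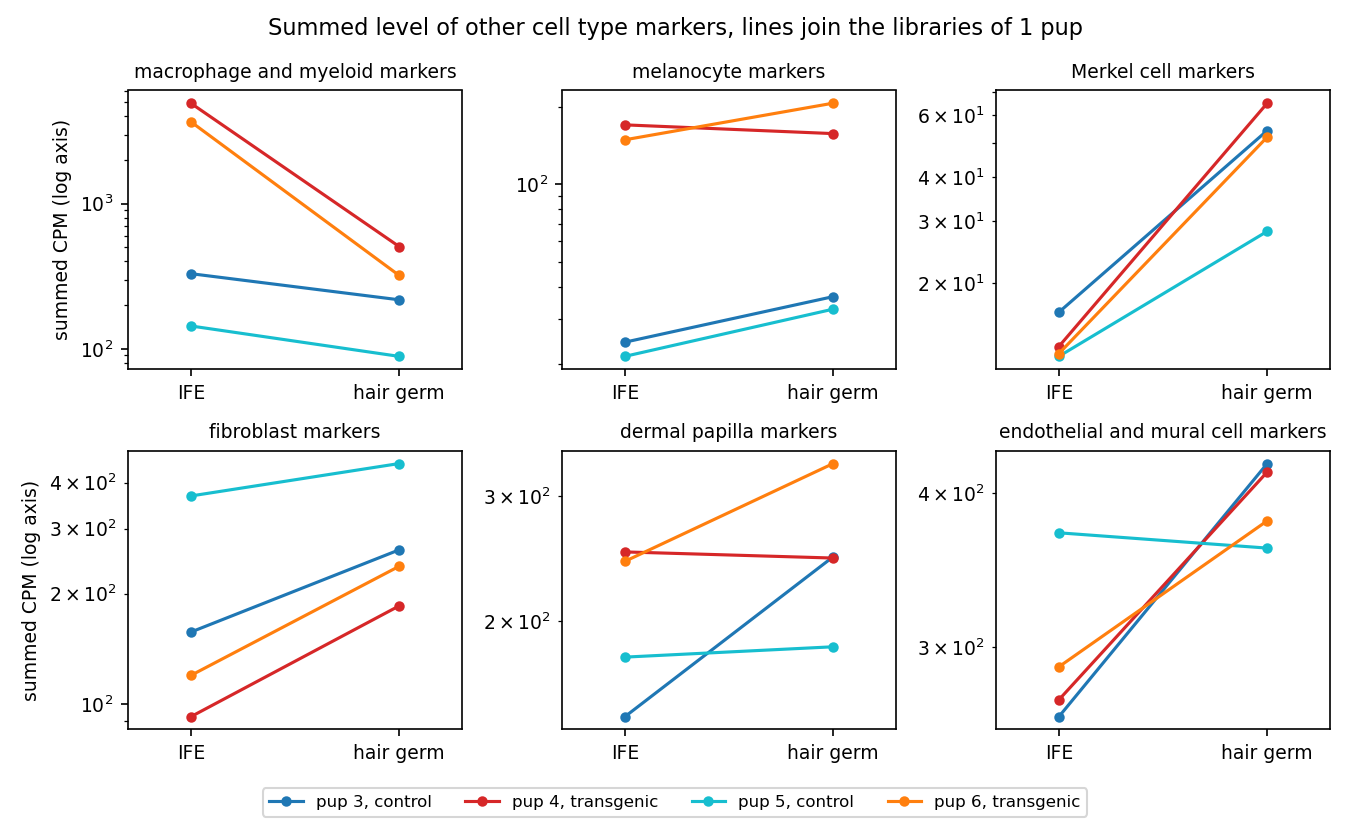
Summed CPM (log axis) of 6 lists of markers of other cell types in IFE and hair germ, 1 line per pup. Myeloid markers reach 4936 and 3678 CPM in IFE of transgenic pups 4 and 6 against 144 to 329.6 CPM in IFE of the control pups, and Merkel cell markers are higher in hair germ of every pup.

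Markers of other cell types were low but not absent. Of 9 tested Merkel cell markers 1 rose (11.1%, against 1.59% of all genes), Rab3c (3.23, adjusted p = 0.0351), and all 9 had positive values. Genes this low can pass the filter on low counts through the population where they are higher. Their shared sign is thus no separate support. The Merkel list summed to 54.3, 65, 28.1 and 52.1 CPM in hair germ and 16.5, 13.2, 12.4 and 12.6 CPM in IFE, with no overlap. Atoh1, the factor that specifies these touch cells, was at 4.04, 2.81, 0.531 and 1.7 CPM in hair germ and at 0 in all 4 IFE libraries. Of 11 melanocyte markers 2 rose (18.2%, against 1.59% of all genes). These were Dct, a melanin enzyme (1.90, adjusted p = 0.00731), and Kit, the receptor of melanoblasts (1.56, adjusted p = 0.0411). Kit was at 0 CPM in both libraries of pup 3 and was higher in hair germ of the other 3 pups. The melanocyte list summed to 36.6, 157, 32.7 and 206 CPM in hair germ and 24.4, 170.0, 21.5 and 149 CPM in IFE, higher in the transgenic pups of both populations.

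Of 6 tested fibroblast markers 2 rose (33.3%, against 1.59% of all genes), Col1a2 (1.57, adjusted p = 0.00886) and Dcn, decorin (0.61, adjusted p = 0.0427). The summed level was 263, 185, 451 and 237 CPM in hair germ and 157, 92.6, 368 and 119.8 CPM in IFE, higher in hair germ of each pup. Col1a1 was at 0.0878, 7.04, 1.79 and 2.18 CPM in hair germ, and Twist2 was at 0 in all 8 libraries. The summed matrix list was higher in hair germ of pups 3, 4 and 6, but in pup 5 it was 21013 CPM in hair germ and 21731 CPM in IFE. The part of fibroblasts in the rises of the matrix genes was not tested. Of 7 tested dermal papilla markers 1 rose (14.3%, against 1.59% of all genes), Vcan, versican (0.72, adjusted p = 0.0267). Their summed level was 184 to 333 CPM in hair germ and 147 to 250.2 CPM in IFE. Of 7 tested endothelial and mural markers 1 rose and 1 fell (14.3% each, against 1.59% and 4.26% of all genes). Cspg4 rose (0.86, adjusted p = 0.0206) and Kdr fell (-3.09, adjusted p = 0.0355). Kdr was low, at 0.351, 1.41, 0 and 0.363 CPM in hair germ and 2.78, 10.9, 0 and 5.06 CPM in IFE, with no counts in pup 5. Emcn was at 0 in every library.

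Of 5 tested T cell, Langerhans and mast cell markers 1 fell (20%, against 4.26% of all genes), Cd74, a chaperone of MHC class II (-1.77, adjusted p = 0.0116). The mast cell genes Cpa3, Mcpt4 and Tpsb2 were at 0 throughout. Skeletal muscle markers summed to 2.37 to 6.95 CPM in hair germ and 2.04 to 5.06 CPM in IFE. Of the muscle, Schwann cell and neuron, adipocyte and erythroid, and sebaceous lists 0 members passed. In single libraries a count of 0 allows up to 0.199 to 0.522 CPM (3 counts), which covers counting error only. Zeb1, a repressor of epithelial genes and a known miR-200 target, fell (log2 fold change -2.24, SE 0.59, adjusted p = 0.0429) from IFE values of 1.04, 12.3, 2.88 and 13.2 CPM that were high in pups 4 and 6 only.

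Whether the difference between populations itself differed between genotypes was tested with an interaction term. It passed for 81 genes (0.571%) with a more negative and 5 (0.0353%) with a more positive difference in transgenic pups, and 40 of these 86 genes were among those lower in hair germ overall. Vim, vimentin, an intermediate filament of mesenchymal and myeloid cells, was at 146, 729, 132 and 637 CPM in hair germ and 230.4, 6301, 196 and 5597 CPM in IFE. Its hair germ minus IFE difference differed by -2.51 in log2 fold change between transgenic and control pups (SE 0.2, adjusted p = 0.00408). The mannose receptor gene Mrc1, the leukocyte actin-bundling gene Lcp1, the lysosomal protease gene Lgmn, the endocytic receptor gene Lrp1 and the ferritin gene Ftl1 had interaction terms of -2.99, -3.06, -3.07, -1.98 and -2.04. Ftl1 shares 26.5% of its exonic bases with another gene. Tgfbr1 had one of -1.87, and all 7 genes were highest in IFE of pups 4 and 6. The terms of the Hedgehog, follicle factor and matrix genes named above did not pass (adjusted p of 0.41 for Shh, 0.84 for Lhx2 and 0.80 for Fn1), which does not show that the genotypes were alike. Without pup 4 or without pup 6, 0 genes passed this test, with 783 and 710 at an unadjusted p under 0.05. Those fits hold 1 transgenic pair, which is assumed to vary like the 2 control pairs. Without the block 19 genes passed.

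**Figure D5:**
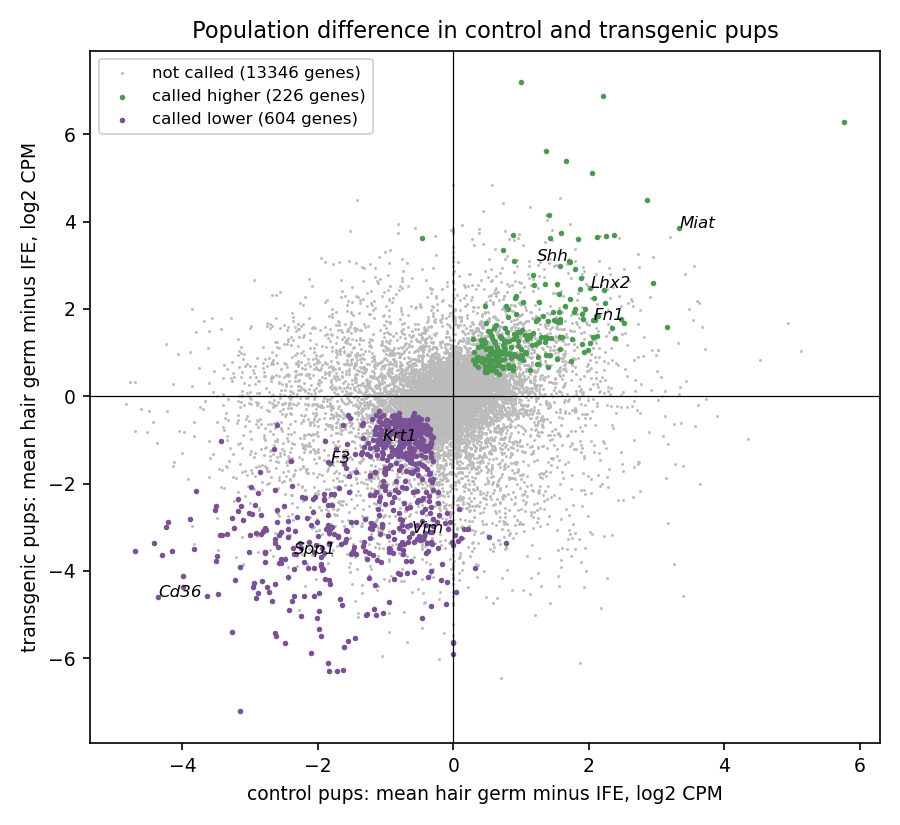
Mean hair germ minus IFE difference in log2 CPM of the 2 control pups (x axis) and the 2 transgenic pups (y axis), 1 point per gene tested, with called genes coloured. Called rises lie mostly in the upper right and called falls mostly in the lower left, and Vim lies at -0.61 for the controls and at -3.12 for the transgenic pups.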

How the data were processed

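Sorted cells went into Trizol and their RNA into SMARTer stranded libraries for small inputs, per the labels' protocols. The deposited values used here are raw counts per gene for each of the 8 libraries, and the submitters' processing notes name TopHat, HTSeq and DESeq2 and the build mm10 (GRCm38) without versions. Whether the counting used strand is not given in the sources consulted. Of all reads in the count files 23.4% to 42.4% were assigned to genes. The lines for unassigned reads were kept out of library sizes and tests, and the deposited normalised matrix was not used.

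Genes were filtered with filterByExpr by the 4 groups of genotype and population, which kept 14176 of 23433, and scaled by TMM. The fit was edgeR 4.0.16 in R 4.3.3 (glmQLFit and glmQLFTest) with pup as a block and population as the term. It left 3 residual degrees of freedom. Adjusted p-values are Benjamini-Hochberg values over all genes tested, with a threshold of 0.05, and the SE is the log2 fold change divided by the square root of F. The interaction of population and genotype was fitted with the same block. Differences within a pup are of log2 CPM with a prior count of 2. Hair germ and IFE of 1 number come from the same pup, per the labels. The deviations of same-numbered libraries from their group means had a Pearson r of 0.117 in control and 0.0868 in transgenic pups over 14176 genes, and of 0.394 and 0.191 over 7362 genes whose mean log2 CPM reached 4.

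Named genes are those of the sort and 9 others set by name, the 15 largest rises and falls (same sign in every pup, mean log2 CPM from 2 up, no clone names), up to 6 called genes per list and direction, or up to 2 by value where none was called, and up to 6 genes for the genotype difference. Values of some genes are not reported here. Others are said to be chosen after their values were seen. The members and lists were chosen with earlier results of these data known. On simulated counts for 13979 genes in this paired design, 44% of 100 genes with a log2 fold change of 1 and 100% of 100 genes with one of 2 were recovered, and 4 of 148 calls were false. Whether these rates hold for the deposited counts, in which differences varied between pups and genotypes, was not tested. Alternatives were other tests (DESeq2 1.42.0, voom in limma 3.58.1, edgeR's legacy method), scalings, filters, fits without the block and fits leaving out pups.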

Additional observations from a re-analysis of the deposited data

Results flagged for a closer look

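With 4 pups per gene, the gap between 1 pup's hair germ minus IFE difference (log2 CPM) and the nearest other pup was large against the whole range for 10 of 165 named genes, where chance gives about 1 in 20. Without the genes chosen after their values were seen, it was large for 6 of 147, with pup 5 apart in 3. The difference of pup 5 was -1.88 for 1700028I16Rik, -0.47 for Pdpn and -0.32 for Spire2, genes chosen after their values were seen, and 0.56 for Rab3c, each below the other 3 pups. It was 0.29 for Hspg2, the smallest step of the 4, and -1.21 for Nr4a1, the largest fall of the 4. Pup 4 had the smallest step for Edar (0.83) and Tgfb3 (1.06). Pup 3 had the largest fall for Serpinb2 (-3.36) and the smallest for Spp1 (-0.94), whose IFE level in that pup was 0.174 CPM, under the floor of 3 counts.

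Among the named genes, 7 passed the interaction test of population and genotype. The transgenic minus control difference in log2 fold change was -2.04 for Ftl1, -3.06 for Lcp1, -3.07 for Lgmn, -1.98 for Lrp1, -2.99 for Mrc1, -1.87 for Tgfbr1 and -2.51 for Vim. All had their highest level in IFE of transgenic pups 4 and 6, where the summed myeloid markers were 4936 and 3678 CPM. The part of myeloid cells in these differences was not tested.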

How the results depend on the processing

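The count of genes higher in hair germ (226) moved to 394 with DESeq2, 95 with edgeR's legacy method, 484 with library size alone, 66 with pups 5 and 6 alone, 1 with the control pups alone and 490 with the transgenic pups alone. The count of lower genes (604) moved to 226 with the legacy method, 291 with library size alone, 310 with a stricter filter (mean log2 CPM from 2 up), 225 with pups 5 and 6 alone, 1 with the control pups alone (997 genes at an unadjusted p under 0.05 in either direction) and 1121 with the transgenic pups alone. Without the replicate block the counts were 142 and 339 with 4 group means and 138 and 340 with genotype and population terms. Leaving out 1 pup at a time gave 17 to 191 higher and 46 to 605 lower genes, with the low values without pup 4 or pup 6. DESeq2's count of lower genes (849) and the counts with voom, size factors in place of TMM, scaling without Rn45s, no filter and the population-by-genotype term were within 1.5 times the first.

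With library size alone, genes higher in hair germ in all 4 pairs numbered 3068 and genes lower in hair germ in all 4 pairs 944. The 86 genes of the genotype difference became 19 without the block, 284 with DESeq2, 162 with the stricter filter and 0 to 99 with 1 pup left out. The 0 came without pup 4 (783 at an unadjusted p under 0.05 by edgeR) and without pup 6 (710), where the lone transgenic pair is assumed to vary like the control pairs.

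Signs turned for genes given by value or called only for the genotype difference. With library size alone the log2 fold changes were 0.15 for Erbb3, 0.044 for Krt14 and 0.033 for Lpl, and with the transgenic pups alone 0.12 for Erbb3 and 0.11 for Lpl. In the control pups alone they were 0.047 for Ftl1, 0.14 for Lrp1 and 0.86 for Tnnt3, the log2 fold change of Lgmn was 0.0774 and the log2 fold change of Tchh was -0.00532. With pups 5 and 6 alone they were 0.027 for miR200primary, 0.16 for Rn45s, 0.56 for Tnnt3 and -0.059 for Ttn. With 1 pup left out Tnnt3 ranged from -1.14 (without pup 5) to 0.72 (without pup 4) and Tubb3 from -1.60 (without pup 5) to 0.082 (without pup 3). The cause of these changes was not tested. With 4 pairs and 7109871 to 14039583 counts per library, a gene that missed the threshold is not shown to be equal in both populations.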
